A study of Mus musculus with 17 samples.

Results

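The immediate early genes are a set of 10 genes (Fos, Fosb, Jun, Junb, Egr1, Atf3, Ier2, Dusp1, Zfp36 and Nr4a1) that were taken by name from the 31245 genes of a lung RNA sequencing table. All 10 passed the filter of at least 20 counts over the 17 libraries, which left 26946 genes, so no member was lost or gained through its level. No member met the threshold for a PFOA effect in any genotype, where 0.0% of all genes met it with edgeR. The members did vary between animals, and several of them varied together: in mice on vehicle, Fos, Egr1, Dusp1, Zfp36 and Nr4a1 had no overlap between the lower KO and the higher KI libraries (5 of 10 members, against 9.66% of all genes). Without TMM scaling of the counts, Fos overlapped between these groups. None of the 5 was called (0.00371% of all genes were), and on PFOA 0 members were apart between KO and KI (8.43% of all genes).

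Immediate early genes are transcribed within minutes of a stimulus from factors that are already in the cell, without new protein synthesis. Signals that pass through MAP kinases, cAMP or calcium reach serum response factor with its ternary complex partners and CREB at their promoters, and the mRNAs are short-lived. Fos, Fosb, Jun and Junb encode subunits of the AP-1 transcription factor, Egr1, Atf3 and Nr4a1 encode other transcription factors, and Ier2 encodes a nuclear protein of the same early wave. Dusp1 encodes a phosphatase that switches MAP kinases off, and Zfp36 encodes tristetraprolin, which binds AU-rich elements and speeds the decay of cytokine mRNAs. In the lung they respond to injury, inflammation and stretch, and handling of tissue can also induce them.

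The mice were wild type (WT, Sv/129), PPARα null (KO) or humanized PPARα (KI), in which the human receptor stands in for the mouse receptor. KO and KI mice came from shared breeding of PPARα null and human PPARα heterozygous pairs, while WT mice were bought, so genotype and source of the animals cannot be told apart. From 6 weeks of age they drank sucrose water (vehicle) or the same water with 6.2 μg/mL PFOA, a perfluoroalkyl acid, for 14 weeks, and whole lung was snap frozen. Each group had 3 libraries except WT vehicle, with 2, and each library was 1 animal. All 6 KO animals were female, and the other groups held both sexes.

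Libraries held 4116118 to 9237356 estimated counts (median 7524757), where 3 counts correspond to 0.325 to 0.729 counts per 1000000 (CPM). In WT vehicle 122 and KO vehicle 137, protein-coding genes took 65.3% and 61.3% of counts, against 74.4% to 80.4% in the other libraries. Lung epithelial markers summed to at least 9774 CPM in every library, so the tissue label held. Ppara, the targeted gene, averaged 5.95 CPM in the libraries labelled WT, 10.2 CPM in those labelled KO and 14.6 CPM in those labelled KI, and was therefore not lower in the KO libraries. Counts per gene do not resolve exons, so a deleted part could not be seen, and KO and KI below are the labels of the libraries. Cardiac muscle genes (6 of 6 detected, Myh6, Tnnt2, Actc1, Myl7, Tnni3 and Nppa) summed to between 276 and 7119 CPM.

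Promoter sequence was taken from RefSeq (build GRCm38.p6) for 8 of the 10 members. The windows held the 250 bases before the start site. Egr1 and Ier2 were not analysed here. The windows of 4 members are shown because they carry the CRE core, and because Dusp1, Nr4a1, Fos and Junb are members that the comparisons and correlations below turn on. Each is written 5′ to 3′ on the gene's strand, and capitals mark the CRE core TGACG or the full CRE, the TATA box and the EGR site, with matches on the other strand seen as their reverse complement (CGTCA for the core).
Fos: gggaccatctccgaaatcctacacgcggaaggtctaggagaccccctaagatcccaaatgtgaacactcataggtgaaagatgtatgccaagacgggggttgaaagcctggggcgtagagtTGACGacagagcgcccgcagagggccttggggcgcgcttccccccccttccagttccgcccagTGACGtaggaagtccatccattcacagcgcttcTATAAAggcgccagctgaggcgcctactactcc
Junb: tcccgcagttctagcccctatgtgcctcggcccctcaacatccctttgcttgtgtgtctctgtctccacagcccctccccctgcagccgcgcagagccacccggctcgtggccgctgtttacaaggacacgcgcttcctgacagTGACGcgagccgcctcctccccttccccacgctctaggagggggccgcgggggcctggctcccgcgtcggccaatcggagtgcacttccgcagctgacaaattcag
Dusp1: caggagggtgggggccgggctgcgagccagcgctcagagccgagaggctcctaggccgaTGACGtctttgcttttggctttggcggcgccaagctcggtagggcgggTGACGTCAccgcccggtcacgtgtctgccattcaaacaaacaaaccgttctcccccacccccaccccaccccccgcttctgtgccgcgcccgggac
Nr4a1: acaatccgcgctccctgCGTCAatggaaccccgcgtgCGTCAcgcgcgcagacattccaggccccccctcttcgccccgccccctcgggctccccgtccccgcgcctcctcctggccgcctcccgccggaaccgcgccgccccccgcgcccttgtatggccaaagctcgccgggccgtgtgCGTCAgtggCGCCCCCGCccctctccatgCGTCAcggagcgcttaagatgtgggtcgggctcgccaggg

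The Fos window lay at chr12:85473640-85473889 on the plus strand, directly before the gene. Its TATA box stood at positions -33 to -28 from the start site, with CRE cores at -66 to -62 and -129 to -125. The Junb window lay at chr8:84978749-84978998 on the minus strand, upstream of the annotated gene, with a CRE core at -106 to -102. The Dusp1 stretch lay at chr17:26508520-26508722 on the minus strand and stops at position -48, since the 47 bases nearest the start are annotated in GENCODE M21 as UTR. It held the only full CRE among the 8 member windows, at -143 to -136. The Nr4a1 window lay at chr15:101266596-101266845 on the plus strand, inside the annotated gene but outside its exons, because longer Nr4a1 transcripts start further upstream. It held 4 CRE cores and an EGR site at -60 to -52.

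The letters were searched on both strands, and every full CRE also counts as CRE cores. The full CRE (TGACGTCA) was in 1 of the 8 member windows and in 1.55% of 32851 promoter windows. The CRE core (TGACG) was in 6 of 8, against 17.8%. The EGR site (GCGNGGGCG) was in 3 of 8 (Fosb, Zfp36 and Nr4a1), against 4.7%, and the CArG box, the serum response factor element, was in 1 of 8 (Zfp36), against 1.47%. The TATA box (TATAAA) was in 1 of 8, against 12.4%, and the AP-1 site (TGANTCA) in 0 of 8, against 6.75%. None of the windows shown held a CArG box, and bases further upstream were not searched. A match is a description of the letters only, and the window of Zfp36 is not shown because all of its 250 bases are annotated as UTR.

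Per kilobase of merged exons, Jun was the most abundant member. Its level averaged 101.8 CPM per kb (SD 14.9, n = 17 libraries), followed by Dusp1 at 35.5 (SD 15.2) and Ier2 at 25.96 (SD 6.67). Zfp36 stood at 18.8 CPM per kb (SD 3.25) and Junb at 15.5 (SD 2.99). Egr1 at 8.34 (SD 2.79) and Fos at 8.16 (SD 3.34) could not be ordered, since Egr1 was above Fos in 9 of 17 libraries. Nr4a1 followed at 4.98 CPM per kb (SD 1.92), Atf3 at 2.39 (SD 0.765) and Fosb at 0.735 (SD 0.305). Jun was above Dusp1, Junb above Egr1, Nr4a1 above Atf3, and Atf3 above Fosb in 17 of 17 libraries. The order of Dusp1 over Ier2 and of Zfp36 over Junb held in 13 of 17, and that of Ier2 over Zfp36 and of Fos over Nr4a1 in 15 of 17. Even the least abundant member was counted in every library, with 13 to 59 counts for Fosb and 19 to 57 for Atf3.

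Exons of Jun share 232 bases with the antisense gene Junos, those of Junb share 173 bases with Prdx2, and those of Zfp36 share 125 bases with Gm44710. The library kit marks strand, but the sources do not state whether the counting used it, so reads in these stretches cannot be assigned with certainty. Junos averaged 4.47 CPM, Gm44710 2.39 CPM and Prdx2 32.6 CPM, the last close to the 35.6 CPM of Junb itself.

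**Figure D1:**
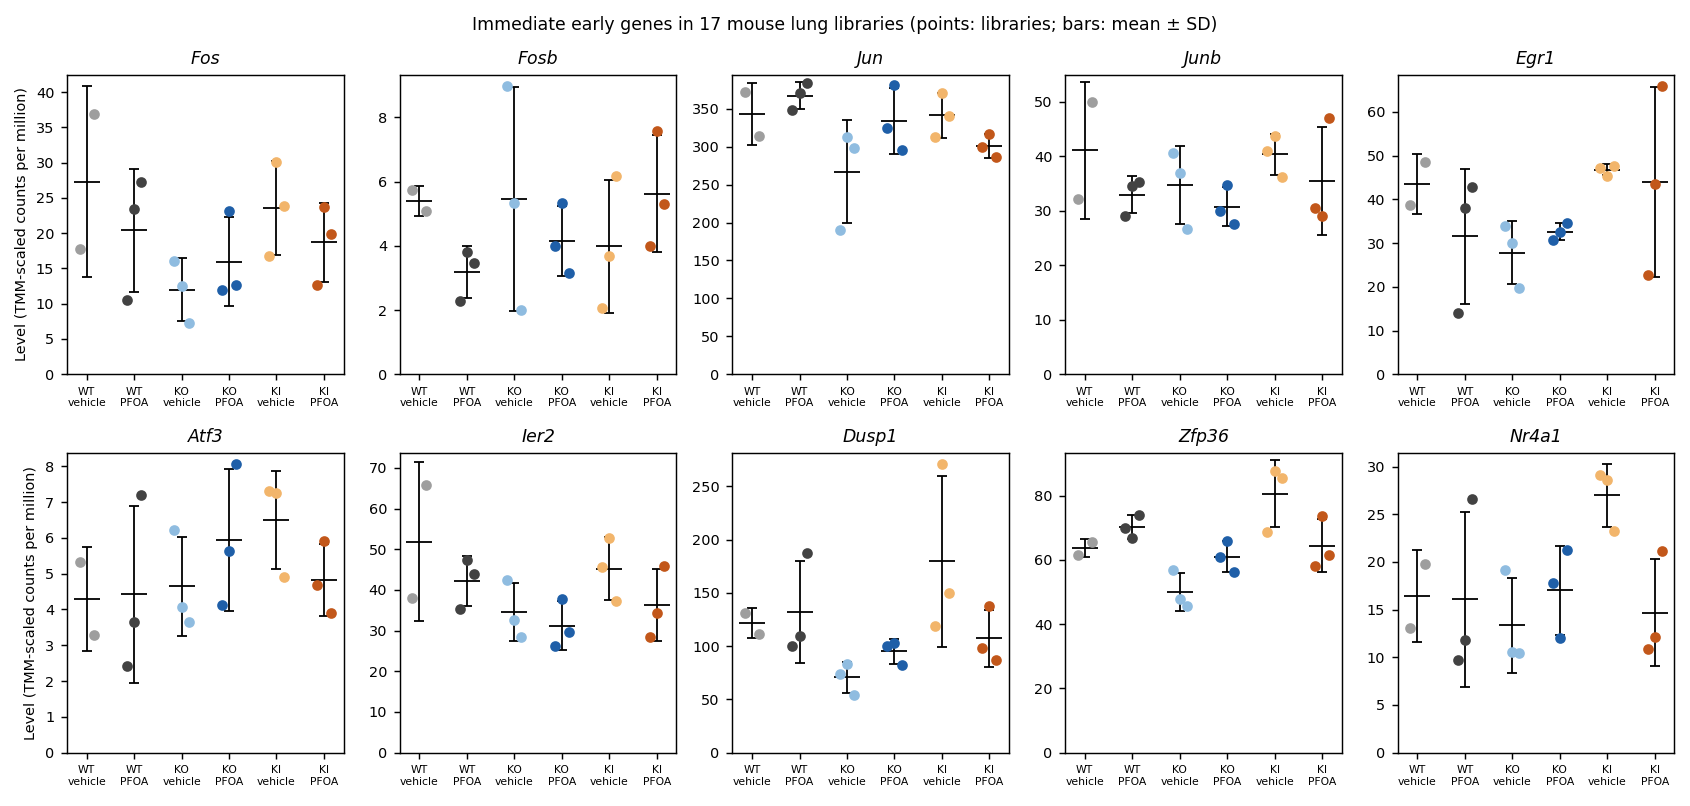
Levels of the 10 genes in TMM-scaled CPM (vertical axis, linear from 0) in the 6 groups (horizontal axis), with a point per library and the mean ± SD as bars. The KI vehicle libraries are the highest group for 5 genes, and the KO vehicle libraries are the lowest for 6.

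The members differed in how far animals of the same group lay apart. The biological coefficient of variation, the spread between animals beyond counting error, was 31.96% for Fos, 35.3% for Fosb, 29.4% for Nr4a1, 29.0% for Egr1, 28.9% for Atf3 and 24.3% for Dusp1. It was 19.8% for Ier2, 17.96% for Junb, 15.5% for Jun and 12.6% for Zfp36. The median was 27.3% over all 26946 genes and 16.05% over the 10560 genes with a mean of at least 10 CPM. Among these better-measured genes, Fos lay at the 97.1st percentile, Nr4a1 at the 96.0th, Egr1 at the 95.8th and Dusp1 at the 90.7th, while Jun (44.7th) and Zfp36 (11.5th) did not stand out. The highest library was 5.06 times the lowest for Fos, 4.98 times for Dusp1 and 4.73 times for Egr1, against 1.92 times for Zfp36 and 1.87 times for Junb.

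In WT mice, no AP-1 gene differed between PFOA and vehicle past the threshold. Fos was 17.7 and 36.9 CPM in the 2 vehicle libraries and 10.52, 23.4 and 27.2 CPM in the 3 PFOA libraries. The vehicle values span most of the PFOA range, and the log2 fold change was -0.42 (SE 0.41, edgeR quasi-likelihood test, Benjamini-Hochberg adjusted p = 0.839). Jun was 372 and 314 CPM on vehicle and 348, 370 and 384 CPM on PFOA, with a log2 fold change of 0.10 (SE 0.19, adjusted p = 0.931). Fosb was the AP-1 gene with the largest difference. It was 5.73 and 5.08 CPM on vehicle and 2.28, 3.80 and 3.47 CPM on PFOA. All PFOA values were below both vehicle values, but the log2 fold change of -0.77 (SE 0.50) had an adjusted p of 0.751 in the edgeR test. Zfp36 was 61.7 and 65.7 CPM on vehicle and 69.9, 66.8 and 74.1 CPM on PFOA, which is the only member with all PFOA libraries above vehicle (log2 fold change 0.14, SE 0.16). Thus 2 of 10 members did not overlap between the groups, against 22.5% of all genes. With edgeR, 0 of 10 members were called, which took a fold over 2 with an adjusted p under 0.2 (0.0% of all genes), 0 of 10 had an unadjusted p under 0.05 (7.35% of all genes), and DESeq2 also called 0 members.

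In KO mice, 7 of 10 members had a higher mean on PFOA, with a median log2 fold change of 0.30, against -0.03 over all genes. Zfp36 was nearest to a difference. It was 56.9, 47.8 and 45.7 CPM on vehicle and 61.0, 66.0 and 56.2 CPM on PFOA, so that 2 of the 3 PFOA libraries lay above all vehicle libraries (log2 fold change 0.29, SE 0.14, adjusted p = 0.515 in the edgeR test). Jun was 190, 313 and 299 CPM on vehicle and 324, 382 and 296 CPM on PFOA (log2 fold change 0.32, SE 0.17). Its lowest value came from KO vehicle 137, a library with few protein-coding counts. Fosb, Junb and Ier2 were lower on PFOA, by 0.13 to 0.33 on the log2 scale. With edgeR, 0 members were called (0.0% of all genes), 0 had an unadjusted p under 0.05 (9.79%), 0 did not overlap (12.8%), and DESeq2 called 0.

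Neutrophil and leukocyte markers were higher in the PFOA libraries of KO mice. The 6 neutrophil markers summed to 20.5 to 28.6 CPM on vehicle and 59.1 to 77.1 CPM on PFOA, and the 5 leukocyte markers to 88.0 to 194 CPM and 250 to 393 CPM, with none of these genes at 0 in either group. A single i5 index served for KO PFOA and others for KO vehicle, so index and exposure cannot be told apart in KO. The part of either in the member values was not tested. Nonclassical monocyte markers overlapped in KO, at 462 to 1056 CPM on vehicle and 959 to 1235 CPM on PFOA. Platelet markers were apart in KO, at 10.27 to 15.2 CPM and 21.23 to 38.0 CPM. In WT, neutrophil, erythroid and cardiac muscle markers overlapped, but leukocyte markers were also apart, at 104 to 127 CPM on vehicle and 156 to 189 CPM on PFOA. Nonclassical monocyte (797 to 1146 and 1242 to 1556 CPM), endothelial (1253 to 1987 and 2079 to 2215 CPM) and platelet markers (8.19 to 9.06 and 10.23 to 13.75 CPM) were likewise higher on PFOA in WT. Fibroblast and smooth muscle markers were lower there, at 1990 to 2451 CPM on vehicle and 1455 to 1962 CPM on PFOA. Lung epithelial markers were apart in WT too, at 19280 to 25930 CPM and 13030 to 13680 CPM. The part of these lists in the member values was not tested either. In RNA from whole tissue, fewer cells of a type and less RNA per cell cannot be told apart.

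In KI mice, 9 of 10 members had a lower mean on PFOA, with a median log2 fold change of -0.32, against 0.01 over all genes. The smallest unadjusted p-values were those of the feedback genes Dusp1 and Zfp36 and of the nuclear receptor gene Nr4a1. Nr4a1 was 29.1, 28.6 and 23.2 CPM on vehicle and 10.8, 12.1 and 21.1 CPM on PFOA, so the groups did not overlap. The log2 fold change was -0.88 (SE 0.35, unadjusted p = 0.0194, adjusted p = 1.0 in the edgeR test). Dusp1 was 118, 271 and 150 CPM on vehicle and 97.8, 138 and 86.6 CPM on PFOA. These groups overlapped, with KI vehicle 116 far above the rest, and the log2 fold change was -0.74 (SE 0.28, unadjusted p = 0.0153, adjusted p = 1.0). Without that library it was -0.32, with an unadjusted p of 0.231. Zfp36 was 68.6, 87.6 and 85.6 CPM on vehicle and 58.2, 73.7 and 61.5 CPM on PFOA, overlapping in 1 library of each group (log2 fold change -0.32, SE 0.14, unadjusted p = 0.0308, adjusted p = 1.0).

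These 3 members made up the count at an unadjusted p under 0.05, which was 3 of 10 members against 2.59% of all genes. With edgeR, 0 members were called (0.0% of all genes) and DESeq2 called 0, so none of the 3 passed the threshold. The count of 3 became 0 without KI PFOA 57 and 1 without KI vehicle 116. 1 of 10 members, Nr4a1, did not overlap between the groups, against 8.23% of all genes. Fosb was the exception in direction, at 2.07, 3.69 and 6.19 CPM on vehicle and 4.0, 7.58 and 5.31 CPM on PFOA. Egr1 ranged most widely on PFOA, at 22.6, 43.4 and 66.0 CPM, around vehicle values of 45.3 to 47.7 CPM.

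KI vehicle and KI PFOA libraries of the same i5 index gave 2 pairs. Between KI PFOA 80 and KI vehicle 116, Dusp1 was 138 CPM on PFOA and 271 CPM on vehicle, Zfp36 was 73.7 and 87.6 CPM, and Nr4a1 was 12.1 and 28.6 CPM. Between KI PFOA 139 and KI vehicle 135, Dusp1 was 86.6 and 150 CPM, Zfp36 was 61.5 and 85.6 CPM, and Nr4a1 was 21.1 and 23.2 CPM. These genes were picked for the whole comparison on the same libraries, so the pairs are no independent support. Other members went the other way, with Egr1, Junb and Ier2 higher on PFOA by 0.47, 0.37 and 0.30 (log2) between KI PFOA 139 and KI vehicle 135, and Fosb by 1.04 between KI PFOA 80 and KI vehicle 116. Cardiac muscle genes summed to 7119, 2253 and 2068 CPM in KI vehicle libraries 102, 116 and 135, and to 6048, 562 and 2260 CPM in KI PFOA libraries 57, 80 and 139. Their part in the member values was not tested.

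**Figure D2:**
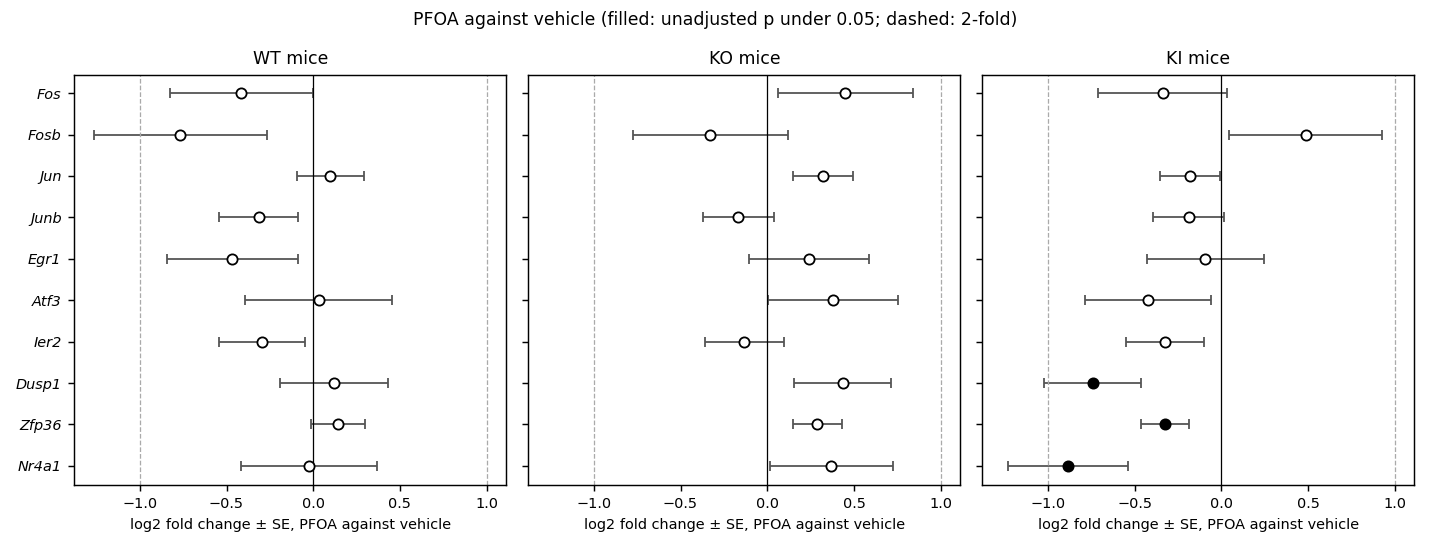
Log2 fold change of PFOA against vehicle (horizontal axis, bars are ± SE) for each of the 10 genes (vertical axis) in WT, KO and KI mice. Filled points have an unadjusted p under 0.05, which occurs for Dusp1, Zfp36 and Nr4a1 in KI, and no point lies beyond the dashed 2-fold lines.

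Tests of the difference between genotypes asked whether PFOA acted unequally on the members. The KI effect minus the WT effect was -0.47 for Zfp36 (SE 0.21, unadjusted p = 0.0377), -0.86 for Dusp1 (SE 0.42), -0.86 for Nr4a1 (SE 0.52) and 1.25 for Fosb (SE 0.67), each with an adjusted p of 0.999 in the edgeR test. Zfp36 was the only member with an unadjusted p under 0.05 (1 of 10, against 4.58% of all genes), and 0 were called (0.0%). The KO effect minus the WT effect was above 0 for 10 of 10 members, from 0.15 for Zfp36 and Junb to 0.87 for Fos (SE 0.57). Over 29 alternative fits, its sign turned in 4 for Junb (lowest -0.20), 3 for Ier2 (lowest -0.28), 2 for Atf3 (lowest -0.24) and 1 for Zfp36 (-0.008). With upper-quartile scaling Junb and Zfp36 were just below 0, and without WT vehicle 122 and KO vehicle 137 the count was 8 of 10. With all libraries, no member had an unadjusted p under 0.05 for this difference (7.46% of all genes), and 0 were called (0.0%). Both differences use the WT effect, so their counts are not independent of each other. DESeq2 called 0 members in both tests.

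With the 3 genotypes fitted together, the 9 PFOA libraries and 8 vehicle libraries differed by between -0.25 (Ier2, SE 0.13) and 0.08 (Jun, SE 0.11) on the log2 scale. The 95% interval of the log2 fold change was -0.55 to 0.35 for Fos, -0.48 to 0.31 for Egr1 and -0.47 to 0.31 for Dusp1, so the data do not show that these genes were equal. It was narrowest for Zfp36, at -0.17 to 0.22. Neither edgeR nor DESeq2 called a member (0.0% of all genes with edgeR), and 0 of 10 had an unadjusted p under 0.05 (8.27% of all genes).

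Libraries labelled KO were lower than WT libraries for 8 of 10 members, with a median log2 fold change of -0.25, against 0.02 over all genes. The lower members with an unadjusted p under 0.05 were Fos, Ier2, Dusp1 and Zfp36 (4 of 10, against 12.9% of all genes). Fos averaged 14.0 CPM in 6 KO libraries and 23.1 CPM in 5 WT libraries (log2 fold change -0.72, SE 0.29, adjusted p = 0.263 in the edgeR test). Ier2 averaged 32.8 and 46.1 CPM (log2 fold change -0.51, SE 0.16, adjusted p = 0.127). Dusp1 averaged 82.8 and 128 CPM (log2 fold change -0.63, SE 0.24, adjusted p = 0.235), and Zfp36 55.6 and 67.7 CPM (log2 fold change -0.28, SE 0.12, adjusted p = 0.316). The adjusted p of Ier2 was under 0.2, but its fold was under 2, so 0 members were called with edgeR, as with DESeq2, while 2.36% of all genes were called. All 4 overlapped between the genotypes. The count of 4 became 1 without WT PFOA 65 and 2 without KO vehicle 149.

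Between KI and WT libraries, the log2 fold changes of the members lay between -0.20 (Ier2) and 0.36 (Atf3), 0 members were called with edgeR or DESeq2 (1.37% of all genes with edgeR), and 0 had an unadjusted p under 0.05 (9.65%). KI libraries were above KO libraries for 10 of 10 members (9 of 10 with upper-quartile scaling, where Fosb turned), with a median log2 fold change of 0.34, against -0.01 over all genes. Dusp1 (0.78, SE 0.23), Zfp36 (0.39, SE 0.12), Fos (0.58, SE 0.28) and Egr1 (0.58, SE 0.24) had an unadjusted p under 0.05 (4 of 10, against 4.78% of all genes). Their adjusted p was 0.9997 each in the edgeR test, and 0 members were called with either tool (0.00742% of all genes with edgeR). The count of 4 became 2 without KO vehicle 149 or KI PFOA 139, and without KO vehicle 149 KI was above KO for 8 of 10 members. KO against WT and KI against KO share the KO libraries.

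Within the vehicle libraries, the KO values lay apart for several members. Fos was 16.1, 12.5 and 7.28 CPM in KO, 17.7 and 36.9 CPM in WT, and 16.7, 30.04 and 23.9 CPM in KI. Every KO value was below every WT and KI value. Dusp1 was 73.7, 83.4 and 54.4 CPM in KO vehicle libraries, again below the 112 and 132 CPM of WT and the 118 to 271 CPM of KI. Zfp36 was 56.9, 47.8 and 45.7 CPM, below 61.7 to 65.7 CPM in WT and 68.6 to 87.6 CPM in KI. Egr1 was 33.9, 29.97 and 19.7 CPM, below 38.8 and 48.5 CPM in WT and 45.3 to 47.7 CPM in KI. Nr4a1 was 19.1, 10.6 and 10.4 CPM in KO vehicle, where it was below the 23.2 to 29.1 CPM of KI but overlapped the 13.1 and 19.8 CPM of WT.

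On vehicle, KO was thus below WT without overlap for 5 of 10 members (Fos, Jun, Egr1, Dusp1 and Zfp36), while 22.9% of all genes did not overlap in either direction. The gap was narrow for Jun, at 313.1 CPM in KO vehicle 145 and 313.6 CPM in WT vehicle 122. Without TMM scaling these were 325.5 and 263.8 CPM, so Jun overlapped. Zfp36 then also overlapped, at 60.0 CPM in KO vehicle 137 and 55.3 CPM in WT vehicle 122. The log2 fold changes were -1.21 for Fos (SE 0.42), -0.79 for Dusp1 (SE 0.31), -0.60 for Ier2 (SE 0.25) and -0.35 for Zfp36 (SE 0.16), and these 4 had an unadjusted p under 0.05 (14.2% of all genes). The lowest adjusted p among them was 0.271, for Fos, and 0 were called with edgeR (1.37% of all genes). KI was above KO without overlap for 5 of 10 members (Fos, Egr1, Dusp1, Zfp36 and Nr4a1), against 9.66% of all genes. Without TMM scaling, Fos overlapped, at 17.01 CPM in KO vehicle 137 and 16.94 CPM in KI vehicle 102. Dusp1 differed by 1.35 (SE 0.28), Nr4a1 by 1.04 (SE 0.35), Fos by 1.01 (SE 0.39), Egr1 by 0.76 (SE 0.34) and Zfp36 by 0.69 (SE 0.14) on the log2 scale. These 5 had an unadjusted p under 0.05 (8.21% of all genes), the lowest adjusted p was 0.441 (Dusp1 and Zfp36), and 0 were called (0.00371% of all genes). Cardiac muscle markers were also apart between these groups, at 276 to 1909 CPM in KO vehicle and 2068 to 7119 CPM in KI vehicle libraries. So were fibroblast and smooth muscle markers (1457 to 1786 and 1989 to 2031 CPM) and platelet markers (10.27 to 15.2 and 16.16 to 36.13 CPM). Lung epithelial, endothelial, leukocyte and neutrophil markers overlapped between KO and KI vehicle. Lung epithelial markers were apart between KO vehicle (9774 to 14970 CPM) and WT vehicle (19280 to 25930 CPM). Fibroblast and smooth muscle (1990 to 2451 CPM in WT vehicle) and platelet markers (8.19 to 9.06 CPM) were apart there too. The part of these markers in the member values was not tested.

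On PFOA, the members named above for vehicle gave smaller differences. For KO against WT, Atf3 was 0.07 on vehicle and 0.42 on PFOA, and Fosb was -0.04 and 0.40. For KI against KO, Fosb was -0.39 on vehicle and 0.42 on PFOA, so the sign of Fosb turned in both. On PFOA, KO against WT was -0.34 for Fos (SE 0.38) and -0.48 for Dusp1 (SE 0.28), with 0 members called (1.01% of all genes) and 0 with an unadjusted p under 0.05 (7.65%). KI against KO was 0.17 for Dusp1 (SE 0.28), 0.08 for Zfp36 (SE 0.14) and -0.21 for Nr4a1 (SE 0.35), with 0 called (0.0%) and 0 with an unadjusted p under 0.05 (2.3%). Whether the genotype difference differed between vehicle and PFOA is the same question as the difference of PFOA effects: for KO and WT it was not past the threshold for any member, and for KI and KO it was not tested. No KO library came from a male, and with sex as a covariate KO against WT over both exposures was -0.62 for Fos, -0.42 for Ier2, -0.74 for Dusp1 and -0.35 for Zfp36.

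**Figure D3:**
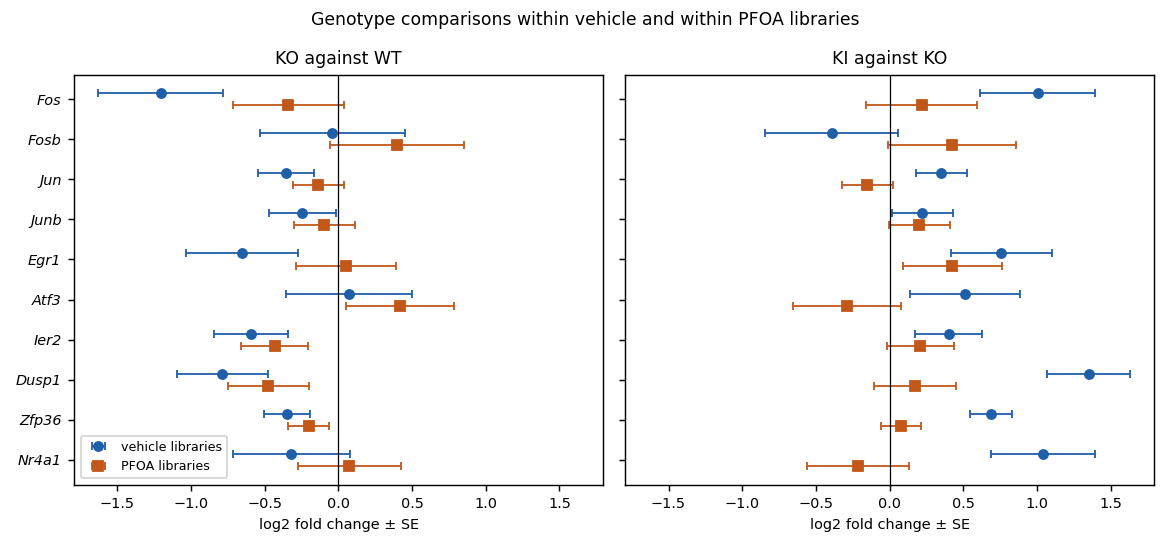
Log2 fold change ± SE (horizontal axis) for KO against WT (left) and KI against KO (right) for each gene (vertical axis), computed within vehicle libraries (circles) and within PFOA libraries (squares). On vehicle, Dusp1 lies at -0.79 and 1.35, and on PFOA at -0.48 and 0.17.

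Across the 17 libraries, several members varied together with Fos. On log2(CPM + 1), Pearson's r with Fos was 0.80 for Ier2 (permutation p = 0.00015), 0.74 for Egr1 (p = 0.00051), 0.71 for Dusp1 (p = 0.00089), 0.71 for Zfp36 (p = 0.00133) and 0.66 for Junb (p = 0.00388). Adjusted over the 9 relations, these p-values were 0.00135, 0.0023, 0.00267, 0.00299 and 0.00698. Spearman's rho was 0.74, 0.80, 0.77, 0.69 and 0.59 in the same order, with adjusted permutation p of 0.003, 0.00162, 0.00207, 0.00572 and 0.0219. For Nr4a1 r was 0.50 (adjusted permutation p = 0.0654) and rho 0.60 (adjusted permutation p = 0.0219). Fosb (r = 0.43, rho = 0.30), Jun (r = 0.31, rho = 0.44) and Atf3 (r = 0.27, rho = 0.27) were not past the threshold by either measure, with adjusted permutation p of 0.101 to 0.298.

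With each group's mean subtracted, r with Fos was 0.78 for Ier2, 0.72 for Egr1, 0.68 for Zfp36, 0.67 for Junb and 0.57 for Dusp1. For the other members it was 0.69 for Fosb, 0.42 for Nr4a1, 0.35 for Atf3 and -0.03 for Jun. Without WT vehicle 122 and KO vehicle 149, the 2 libraries farthest from the median of Fos, r was 0.72 for Dusp1, 0.71 for Ier2, 0.70 for Zfp36 and 0.68 for Egr1. For Junb it was 0.46 (adjusted permutation p = 0.157), so past the threshold the relation of Junb depended on those libraries, which also set the range of Fos. Without WT vehicle 122 and KO vehicle 137, the libraries with few protein-coding counts, r of Jun was 0.59 (adjusted permutation p = 0.0342) in place of 0.31, and r of Junb was 0.60 (adjusted permutation p = 0.0341). The i5 indices held at most 5 libraries each, too few for a correlation within an index.

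**Figure D4:**
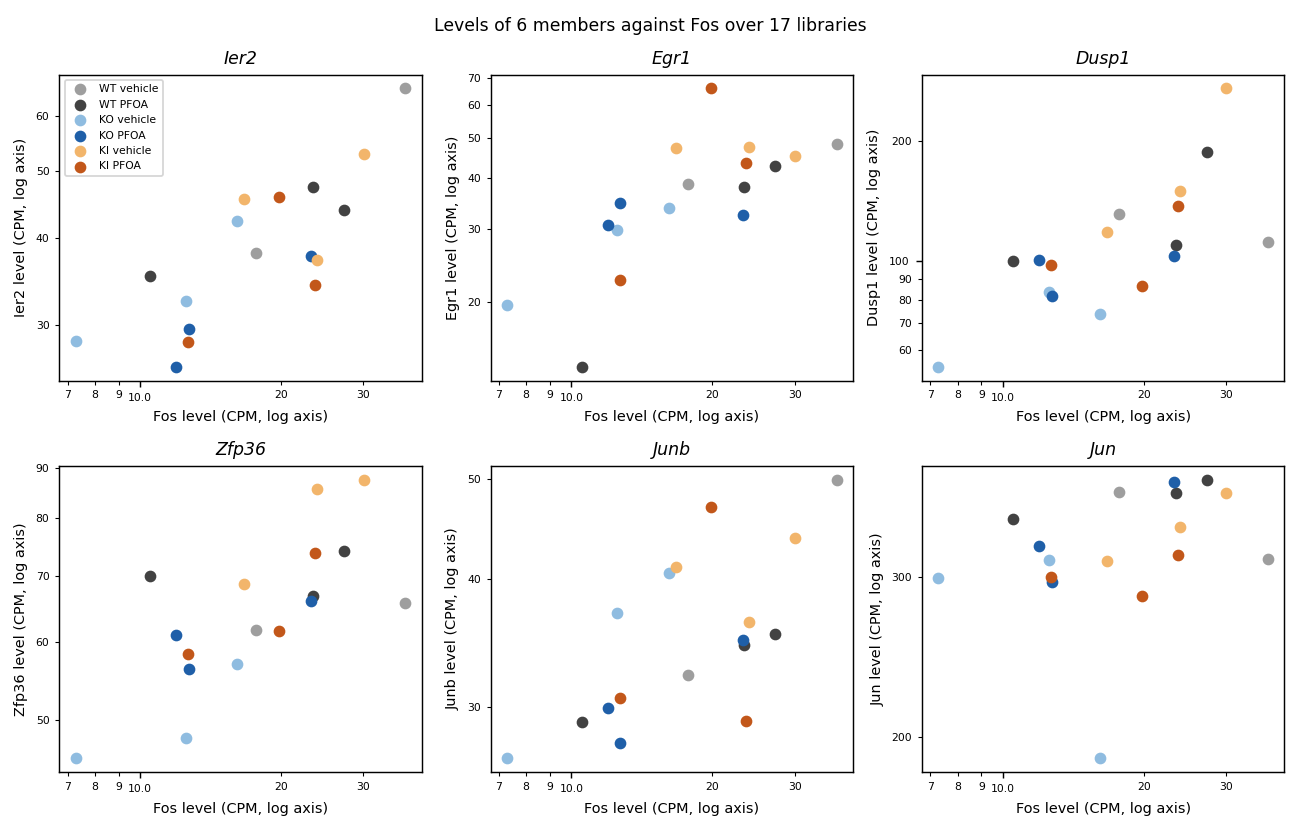
Level of 6 members (vertical axes, CPM, log scale) against Fos (horizontal axes, CPM, log scale), with a point per library coloured by group. Ier2, Egr1, Dusp1 and Zfp36 follow Fos with r of 0.71 to 0.80, while Jun does not, with r of 0.31.

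Of the 45 pairs of members, 40 had r above 0 and the median was 0.43, or 0.34 with group means subtracted. The closest pairs were Dusp1 with Zfp36 (r = 0.87) and Junb with Ier2 (r = 0.85), and the lowest was Fosb with Jun (r = -0.34). All values come from the same libraries and share their scaling. The member mean, in log2 units from each gene's own mean, was lowest in KO vehicle 149 at -0.61, where 0 of 10 members were above their mean, and in WT PFOA 50 at -0.44, with 2 above. It was highest in KI vehicle 116 at 0.49 and WT PFOA 65 at 0.32, with 9 of 10 above in both. A high or a low set of members therefore occurred on vehicle and on PFOA. Against 5 measures of library composition (the shares of protein-coding, ribosomal and mitochondrial counts, genes detected and total counts), the member mean gave r between -0.20 and 0.31 and rho between -0.27 and 0.28, with an adjusted permutation p of 0.724 for each r and of 0.645 to 0.728 for rho.

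**Figure D5:**
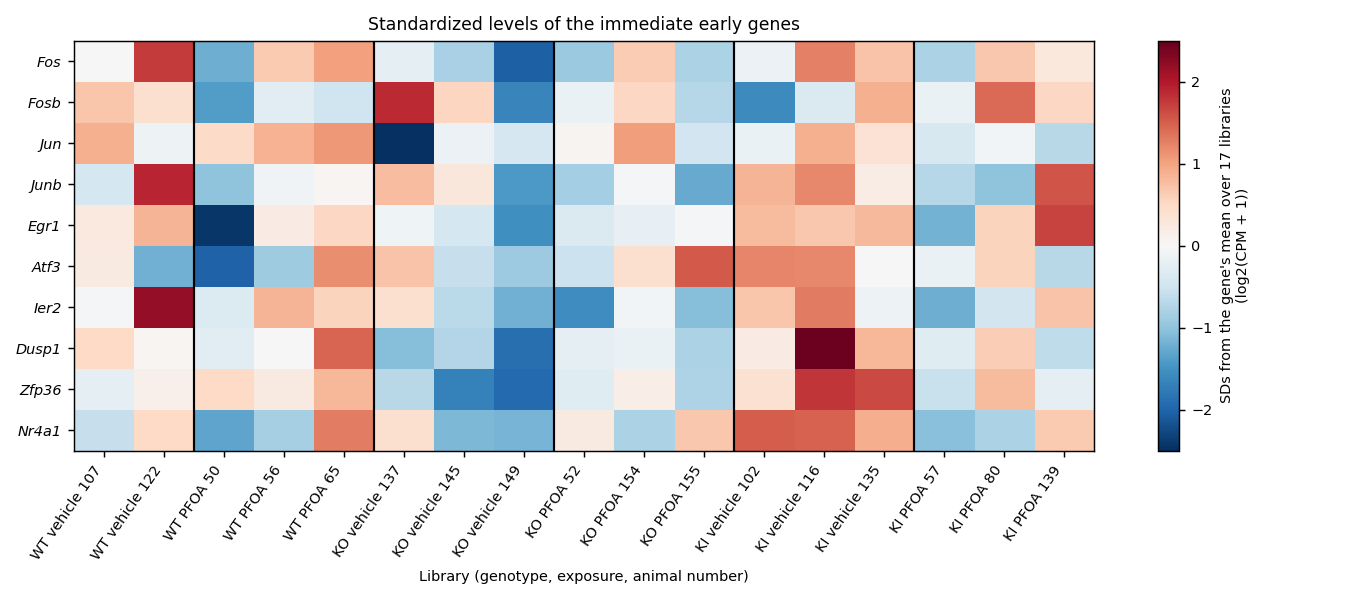
Level of each of the 10 genes (rows) in each of the 17 libraries (columns, black lines between groups) in SDs from the gene's mean over the libraries, on log2(CPM + 1). KO vehicle 149 is below the mean in all 10 genes, and KI vehicle 116 and WT PFOA 65 are above it in 9.

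Over the 13363 genes with a mean of at least 5 CPM, the highest r with the mean standardized level of the members over the 17 libraries was 0.73, for the pseudogene Gm12577. It was 0.71 for Tubb4b-ps1, Sik1, Gm9845 and Mrpl17, 0.69 for Naa25, 0.68 for Btg2, 0.67 for 6030458C11Rik, 0.66 for Trappc10 and 0.65 for Cfap126. With group means subtracted, r was 0.71 for Gm12577, 0.77 for Tubb4b-ps1 and 0.81 for Mrpl17, but 0.40 for Sik1 and 0.39 for Btg2. Sik1, a CREB-induced kinase that restrains CREB co-activators, was 68.0 to 78.3 CPM in KO vehicle libraries, and its highest value was 237 CPM in KI vehicle 116, the library with the highest Dusp1. Btg2, an antiproliferative early gene, was 71.9 to 84.1 CPM in KO vehicle and highest in the same KI library at 152 CPM. Of 17 other inducible transcription factor genes at this level, 6 had r of at least 0.5 (35.3%, against 1.51% of all 13363 genes), led by Jund at 0.63. Of 23 upstream kinases and factors, 1 did (4.35%), the serum response factor gene Srf at 0.55.

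Further genes of the pathway were taken from 8 lists of 125 genes. In KI mice, 20 of 21 other inducible transcription factor genes had a lower mean on PFOA (median log2 fold change -0.39), while 50.84% of all genes were above 0. An unadjusted p under 0.05 was found for 6 of them, against 2.59% of all genes, and 0 were called. Among 17 feedback phosphatases and decay factors, 12 were lower and 5 higher (median -0.19), with 0 called. The upstream kinases and factors had a median of -0.02 in KI and of 0.23 in KO, where 20 of 23 were higher on PFOA and 0 were called. Over the 3 genotypes, the 2 genes of smallest p in each early list without a call were, in turn, Pim1, a survival kinase (log2 fold change 0.25, SE 0.10), Ier5 (-0.22, SE 0.09), the phosphatase Dusp5 (0.31, SE 0.19), the signalling inhibitor Spry1 (0.11, SE 0.08), the serum response factor co-activator Mrtfa (0.21, SE 0.09) and the kinase Rps6ka1 (0.17, SE 0.08). Of 18 secreted products 17 were tested, and the 2 of smallest p were Edn1 (-0.20, SE 0.13) and Thbs1 (-0.32, SE 0.23). The adjusted p of these 8 genes was 0.527 to 0.745 in the edgeR test.

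The inducible heat shock genes Hspa1a and Hspa1b, which respond to protein stress and are near-identical in sequence, so that reads may be split between them, were among the most variable of these genes. Hspa1a was 8.19 to 22.1 CPM in the 9 PFOA libraries and 8.91 to 118 CPM in the 8 vehicle libraries, with 118 CPM in KI vehicle 116 and 99.6 CPM in WT vehicle 122. The log2 fold change over the 3 genotypes was -1.55 (SE 0.39, adjusted p = 0.394 in the edgeR test), and for Hspa1b it was -1.60 (SE 0.43, adjusted p = 0.405). Neither was called. These libraries were also the highest of all for Dusp1 (KI vehicle 116) and for Fos, Junb and Ier2 (WT vehicle 122).

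Genes known for induction by glucocorticoids were also lower in KO than in WT. In libraries labelled KO, 8 of 8 were below WT (median log2 fold change -1.01, against 0.02 over all genes, of which 52.99% were above 0), and 3 were called, against 2.36% of all genes. Fkbp5, a chaperone of the glucocorticoid receptor, was 29.2 to 59.4 CPM in 6 KO libraries and 88.5 to 158 CPM in 5 WT libraries (log2 fold change -1.52, SE 0.41, adjusted p = 0.0571 in the edgeR test). Tsc22d3, which encodes GILZ, had a log2 fold change of -1.13 (SE 0.28, adjusted p = 0.0417), and Zbtb16, a transcriptional repressor, of -1.04 (SE 0.31, adjusted p = 0.0959). From the other lists, the clock gene Per1 (-1.13, SE 0.18, adjusted p = 0.00146), the transcription factor gene Cebpd (-1.06, SE 0.26, adjusted p = 0.0337) and the mTOR inhibitor gene Ddit4 (-1.50, SE 0.32, adjusted p = 0.0141) were also lower in KO. Per1 was 70.4 to 135 CPM in KO and 191 to 255 CPM in WT. With the i5 index as a covariate, none of the 6 passed both thresholds. Per1 was then -0.89 (adjusted p = 0.0605, under 2-fold), Ddit4 -1.03 (adjusted p = 0.2002), Tsc22d3 -0.94, Cebpd -0.86, Fkbp5 -0.56 and Zbtb16 -0.53. Within vehicle libraries alone, with 2 in WT, Ddit4 was -2.21 (adjusted p = 0.0474 in the edgeR test), Cebpd -1.51 (0.0507), Per1 -1.28 (0.0579) and Tsc22d3 -1.38 (0.171). These were called there (1.37% of all genes), while Fkbp5 (-1.53, adjusted p = 0.311) and Zbtb16 (-1.25, adjusted p = 0.303) were not. Within PFOA libraries alone, Per1 was -0.99 (adjusted p = 0.106, under 2-fold), Fkbp5 -1.58 (adjusted p = 0.359), Ddit4 -1.03, Tsc22d3 -0.91, Zbtb16 -0.88 and Cebpd -0.72. None was called on PFOA (1.01% of all genes). Over both exposures, the calls of Cebpd and Zbtb16 were also lost without single libraries. For Cebpd these were WT PFOA 65, KO vehicle 137 or KO vehicle 145 (-0.99 to -0.95). For Zbtb16 they were WT vehicle 122, KO vehicle 137, KO vehicle 145 or KO PFOA 155 (-0.99 to -0.93). Fkbp5 and Zbtb16 also had lower means in KI. On vehicle, KI against WT was -1.25 for Fkbp5 (SE 0.60) and -0.88 for Zbtb16 (SE 0.48). It was -0.29 for Per1, -0.24 for Ddit4, -0.03 for Tsc22d3 and 0.03 for Cebpd. On PFOA it was -0.71 for Zbtb16, -0.69 for Tsc22d3, -0.58 for Cebpd, -0.48 for Fkbp5, -0.43 for Per1 and -0.38 for Ddit4. None of these KI differences was called.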

How the data were processed

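Lung RNA from 17 mice was sequenced in 6 groups. Per the labels, the authors prepared the libraries with a stranded total RNA kit. Per the paper's methods, they trimmed poor 3′ ends, aligned with STAR 2.6 (Partek Flow, build mm10) and quantified genes by expectation maximization. They deposited estimated counts without normalization, and these were rounded to whole numbers here. The annotation release and the use of strand in counting are not given in the sources used here. Groups followed the GEO labels. Replicate libraries differed beyond sampling noise (lowest chi-square per degree of freedom 6.29), so each counted once.

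Genes with 20 or more counts in total entered edgeR 4.0.16 in R 4.3.3 (TMM factors, quasi-likelihood F-test, a coefficient per group over all 17 libraries, or genotype plus exposure for the pooled comparisons). Benjamini-Hochberg adjustment covered 26946 genes. A gene was called when its fold exceeded 2 and its adjusted p was under 0.2. Shares of all genes called are those of edgeR. The share called by DESeq2 is not given here, so its counts of 0 members stand without a share. Intervals are 95%, from the SE. CPM is TMM-scaled, and correlations used log2(CPM + 1) with 100000 permutations, two-sided. DESeq2 1.42.0, other scaling and filters, covariates, other thresholds, subsets of libraries and each library left out were alternatives, and the correlations without WT vehicle 122 and KO vehicle 137 were added after seeing the data. The tests were tried on simulated counts. Animals are the replicates, and no label ties animals of different groups. The named genes were the members, genes of the lists that were called in a comparison or otherwise the 2 of smallest p over the 3 genotypes, the 10 genes most like the member mean, and Ppara. Members and lists were chosen with earlier results of these data known. Python 3.11.15 with pandas 2.3.3, numpy 2.4.6 and matplotlib 3.10.9 handled tables and figures.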

Additional observations from a re-analysis of the deposited data

How the results depend on the processing

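No member was called under any of the 31 alternatives to the fit, and the threshold of an adjusted p under 0.05 with a fold over 2 also called 0. At an adjusted p under 0.2 with no fold threshold, 1 member passed for KO against WT, which was Ier2. The share of all genes at that threshold is not given here. Ier2 no longer passed when the edgeR fit included sex (adjusted p = 0.457) or i5 index (adjusted p = 0.327). Some single libraries also mattered: without KO vehicle 149 its adjusted p was 0.226, but without KO PFOA 154 it was 0.0919. Without WT vehicle 122, the log2 fold change of Ier2 was -0.37 in place of -0.51. Of 2660 alternative values of member log2 fold changes, 120 had the opposite sign, in 39 of 90 combinations of member and comparison, and none of these had an unadjusted p under 0.05 at first. The number of members correlated with Fos at an adjusted p under 0.05 ranged from 5 to 6 when each library was left out. Upper-quartile scaling moved the median of all genes for PFOA against vehicle in KO from -0.03 to -0.14. Without KI PFOA 57, Nr4a1 in KI was -0.70 with an unadjusted p of 0.0853. Without WT vehicle 122, Fos in KO against WT was -0.47 with an unadjusted p of 0.12. Without WT vehicle 122 and KO vehicle 137, the libraries with few protein-coding counts, members with a log2 fold change above 0 on PFOA numbered 6 of 10 in WT (4 with them), 9 in KO (7) and 1 in KI (1). Groups of 2 or 3 animals limit all values. Counting error was not weighed against this limit, and Fosb and Atf3 had as few as 13 and 19 counts in a library. No paired analysis was possible because the groups share no replicate numbers.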
